A study of Mus musculus with 28 samples.

Results

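The collagen chains are the genes that encode the polypeptides of the collagen triple helices, and 41 of them were followed here in fetal mouse bladder, stomach and intestine with and without p63. The members are all genes on the array whose symbol has the form Col, a number, a and a number, with Col17a1 left out, and a chain with several probe sets is represented by its brightest on average over all arrays. They are 41 of 18193 genes with a symbol of their own, and they fall into 11 fibrillar chains, 8 basement membrane chains and 22 other chains. The data come from 28 Affymetrix mouse 430 2.0 arrays, on which total RNA from p63 knockout and wild-type Balb/c mice was hybridised. Bladder was collected at 3 stages, embryonic day 15 (E15), day 18 (E18) and day 19 (E19). The small and large intestine and the proximal and distal stomach were collected at E18 only, with 2 arrays per genotype, tissue and stage and thus 14 groups. The sources used here give neither the allele nor the dissection, the number of animals or the limits of the knockout as a model, and the labels do not say whether the arrays of a group come from separate animals. The p-values therefore measure the spread between samples, which may be technical.

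Collagens are secreted as trimers of chains, and the fibrillar types assemble into the banded fibrils that give connective tissue its tensile strength. Type IV collagen forms the sheet-like network of basement membranes under epithelia and around muscle and vessels, and type VII collagen forms the anchoring fibrils that fasten the basement membrane of stratified epithelia to the tissue beneath. Most chains are made by fibroblasts and smooth muscle cells, whereas epithelial cells contribute chains of the basement membrane zone. p63, encoded by Trp63, is a transcription factor of the p53 family that stratified epithelia need in order to form.

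Values are log2 signals as deposited, and each group is given by its 2 arrays. A difference is one of group means, also in log2 units, with its standard error (SE) from limma, and adjusted p is limma's p after Benjamini-Hochberg adjustment over all 13613 genes tested. A gene was tested when its probe set exceeded the median of the same array on 2 or more of the 28 arrays, and it is said to have risen or fallen, or is called, at an adjusted p below 0.05. With 2 arrays in each group the smallest p of an exact permutation test is 0.333. Levels are compared between groups for the same chain and not between chains, because probe sets differ in brightness. Arrays of whole tissue cannot tell fewer cells of a type from less RNA per cell.

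The 2 arrays of a group correlated over genes at 0.980 to 0.994. The 4 bladder E19 arrays stood apart with the lowest medians, 7.48 to 7.53 against 7.73 to 7.86 on the other 24, and with the lowest difference between the 3' and 5' control probe sets of Gapdh, 0.55 to 0.63 against 0.69 to 1.07. Stage and any difference in the handling of these 4 arrays cannot be told apart. The same difference for the beta-actin control, a measure of RNA quality and labelling, was 1.33 and 1.12 on the knockout bladder E15 arrays against 0.69 and 0.78 in the wild type, and 0.48 and 0.61 in knockout proximal stomach against 0.97 and 0.88 in the wild type. Trp63 gave 13.16 and 13.31 in wild-type and 13.67 and 13.78 in knockout proximal stomach, 10.73 and 10.78 against 9.76 and 10.52 in bladder E15, 12.29 and 12.54 against 11.37 and 11.26 in bladder E18, and 11.67 and 12.28 against 9.44 and 9.62 in bladder E19. Its signal was present in the knockout, and the part of the gene that was deleted is not given in the sources used here, so this probe set does not check the labels. The gastric marker Gkn1 was highest in distal stomach, at 13.64 or above on its 4 arrays. In proximal stomach it gave 4.35 and 4.56 in the wild type and 4.51 and 8.53 in the knockout. The gastric marker Tff2 gave 6.73 and 7.64 in wild-type and 12.58 and 12.43 in knockout proximal stomach. The urothelial marker Upk3a gave 13.87 to 14.29 in bladder E18 and 6.64 to 7.01 in proximal stomach. Another urothelial marker, Upk2, did not follow the organ: it gave 8.23 and 9.24 in wild-type and 14.04 and 14.06 in knockout proximal stomach, beside 13.94 to 14.30 in bladder E18. The urothelial marker Upk1a likewise gave 5.82 and 5.28 in wild-type and 10.89 and 11.06 in knockout proximal stomach. The colon marker Car1 lay above the array median on 1 of 28 arrays.

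Of the 41 chains, 36 passed the filter, namely 9 of 11 fibrillar, 7 of 8 basement membrane and 20 of 22 other chains. The 5 that did not were Col2a1 and Col11a2, chains of cartilage fibrils, Col10a1 of hypertrophic cartilage, Col6a5 and Col4a6. On all 28 arrays 18 chains lay above the array median, among them the chains of types I, III and V other than Col5a3, the basement membrane chains Col4a1, Col4a2, Col4a5, Col15a1 and Col18a1, and Col6a1, Col6a2 and Col6a3. Col2a1 stayed between 5.34 and 7.46 and Col10a1 between 4.75 and 5.63. The cartilage markers Matn1, between 4.20 and 5.20, Acan, between 5.97 and 7.11, and Comp, between 5.53 and 7.06, lay above the array median on no array, whereas Hapln1 and Sox9 did on 22 and 27. The mean level of the 12 cartilage markers ran from 6.002 to 7.301 over the 28 arrays.

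**Figure D1:**
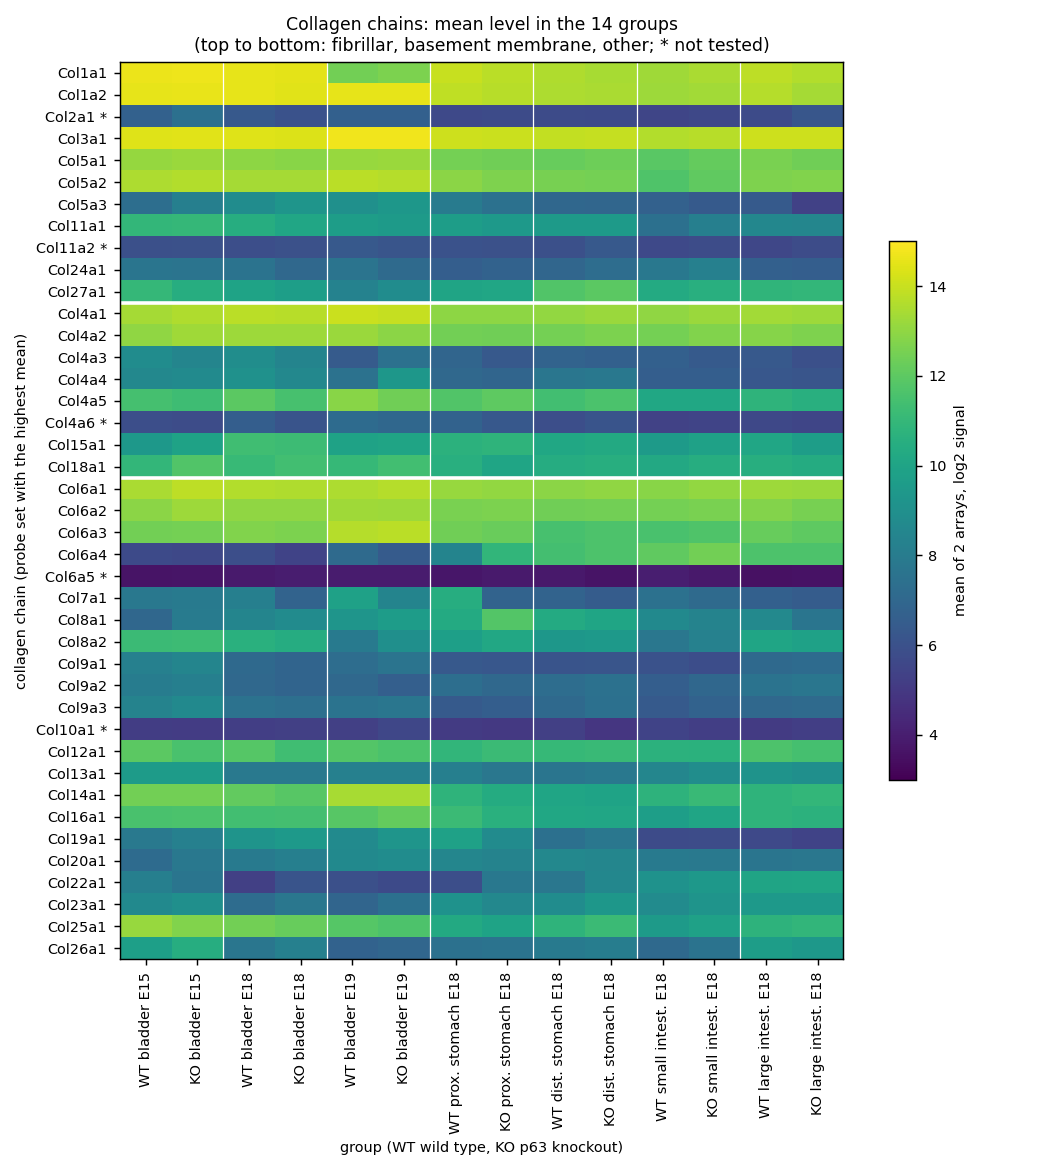
Mean log2 signal of 2 arrays for each of the 41 chains (rows, in the order fibrillar, basement membrane, other) in the 14 groups (columns, wild type beside knockout); a star marks the 5 chains that were not tested. Col6a4 spans the widest range, from 5.39 in knockout bladder E18 to 12.45 in knockout small intestine, whereas Col6a2 spans 0.87.

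Among the wild-type organs at E18, the bladder had the highest level of most collagen chains. By group means the bladder was highest for 7 of 9 fibrillar, 7 of 7 basement membrane and 9 of 20 other tested chains, and the small intestine was lowest for 18 of 36. Each organ was set against the mean of the other 4. In bladder 25 chains were higher and 6 lower, where 53.7% of all genes were called in either direction and 24.2% were called higher; the median difference of the chains was 0.69 and that of all genes -0.05. In small intestine 3 chains were higher and 24 lower, beside 55.1% of all genes called and 29.8% called lower.

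The fibrillar chains carried this order in small steps. Col1a1, which joins Col1a2 in type I collagen, the main collagen of the fibrils, gave 14.59 and 14.47 in wild-type bladder, 14.15 and 13.86 in proximal stomach, 13.43 and 13.75 in distal stomach, 13.23 and 13.38 in small intestine and 13.74 and 13.90 in large intestine. Col1a2 gave 14.55 and 14.51 in bladder, 14.01 and 13.73 in proximal stomach, 13.40 and 13.64 in distal stomach, 13.24 and 13.28 in small intestine and 13.67 and 13.69 in large intestine. For both chains the bladder arrays lay above those of every other organ, while proximal stomach and large intestine overlapped for Col1a1. The bladder exceeded the other organs by 0.85 for Col1a1 (SE 0.14, adjusted p = 4.2e-05) and by 0.95 for Col1a2 (SE 0.10, adjusted p = 1.3e-07).

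Col3a1, whose homotrimers are built into the fibrils of distensible organs, gave 14.41 and 14.46 in bladder, 14.10 and 14.07 in proximal stomach, 13.77 and 14.05 in distal stomach, 13.56 and 13.65 in small intestine and 14.08 and 14.12 in large intestine. Its bladder excess was 0.51 (SE 0.06, adjusted p = 2.4e-07). Larger organ differences were those of Col11a1 and Col5a3. Col11a1, a partner of type II fibrils in cartilage, was 1.66 higher in bladder and 2.13 lower in small intestine (difference -2.13), and Col5a3 was 1.77 higher in bladder. Another order was found for 2 fibrillar chains, namely Col27a1, highest in distal stomach (difference 1.45, adjusted p = 8.1e-06) and 0.80 below the rest in bladder (difference -0.80), and Col24a1, 0.85 higher in small intestine. Col24a1 lay above the array median on only 4 of 28 arrays. Its wild-type small intestine mean was 7.79, near the array medians of 7.73 and 7.76, and its bladder mean was 7.55.

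All 7 tested basement membrane chains were called higher in wild-type bladder than in the other organs. Col4a1 and Col4a2, which form the network found in nearly all basement membranes, exceeded the other organs by 0.66 and 0.68. Col4a3 and Col4a4, known from the basement membrane of the kidney glomerulus, exceeded them by 2.17 (adjusted p = 3.8e-09) and 2.16 (adjusted p = 1.4e-07). Col4a3 gave 9.02 and 8.70 in bladder against 7.18 and 6.68 in proximal stomach, 7.01 and 6.62 in distal stomach, 6.57 and 6.75 in small intestine and 6.45 and 6.23 in large intestine. The bladder arrays of Col4a3 did not overlap those of any other organ, whereas the arrays of the stomach and intestine lay within about 1 unit of each other. Col4a4 gave 9.62 and 8.497 in bladder, 7.38 and 6.69 in proximal stomach, 7.96 and 7.45 in distal stomach, 6.44 and 6.72 in small intestine and 6.38 and 6.17 in large intestine.

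Among the other chains, Col6a4 and Col22a1 had the widest range over the organs, and both were lowest in bladder. Col6a4, a chain of the type VI microfibril family, gave 5.99 and 5.79 in wild-type bladder, 8.62 and 8.24 in proximal stomach, 11.31 and 11.55 in distal stomach, 11.93 and 12.25 in small intestine and 11.27 and 12.06 in large intestine. Its bladder difference was -5.01 (SE 0.24, adjusted p = 9.6e-13), and distal stomach and both parts of the intestine overlapped or nearly did. Col22a1, known from tissue junctions such as that of muscle and tendon, was 2.91 lower in bladder (difference -2.91) and 2.995 higher in large intestine, although the 2 wild-type large intestine arrays were 8.83 and 11.18. Col26a1 was 2.13 and Col13a1, a transmembrane collagen, 1.10 higher in large intestine.

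Col7a1 and Col19a1 had their highest means in proximal stomach, which holds the squamous forestomach of the mouse. Col7a1 was 10.61 and 10.32 in wild-type proximal stomach against 8.21 and 8.11 in bladder, 6.85 and 6.78 in distal stomach, 7.65 and 7.30 in small intestine and 6.81 and 6.59 in large intestine. It exceeded the other organs there by 3.18 (SE 0.14, adjusted p = 7.5e-14). Col19a1, a fibril-associated chain needed when the muscle of the oesophagus turns from smooth to striated, exceeded them by 2.84 (SE 0.36, adjusted p = 1.2e-06), with arrays at 10.41 and 9.29. In bladder it gave 9.74 and 8.73, which overlapped proximal stomach, and it was 2.07 above the other organs there too (adjusted p = 6.4e-05). In proximal stomach 10 chains were higher and 7 lower, beside 48.4% of all genes called. In distal stomach 4 were higher and 7 lower, beside 35.0%, and in large intestine 8 were higher and 8 lower, beside 31.2%. The count was 9 in place of 17 without replicate 1 of proximal stomach, 5 in place of 11 without replicate 1 of distal stomach, and 10 in place of 16 without replicate 2 of large intestine. The 5 organ comparisons share arrays, so their counts are not independent.

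Marker lists of other cells moved with these organ differences. In bladder all 11 smooth muscle markers and 10 of 12 fibroblast markers were called higher than in the other organs, with mean levels of the fibroblast list of 11.25 and 11.32 on the wild-type bladder arrays and 9.69 and 9.60 on those of small intestine. In proximal stomach 5 of 14 skeletal muscle and 6 of 8 basal stratified epithelium markers were higher. Of all 13613 genes 3301 were called higher in bladder and 2766 in proximal stomach. The part of these lists in the collagen differences was not tested.

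**Figure D2:**
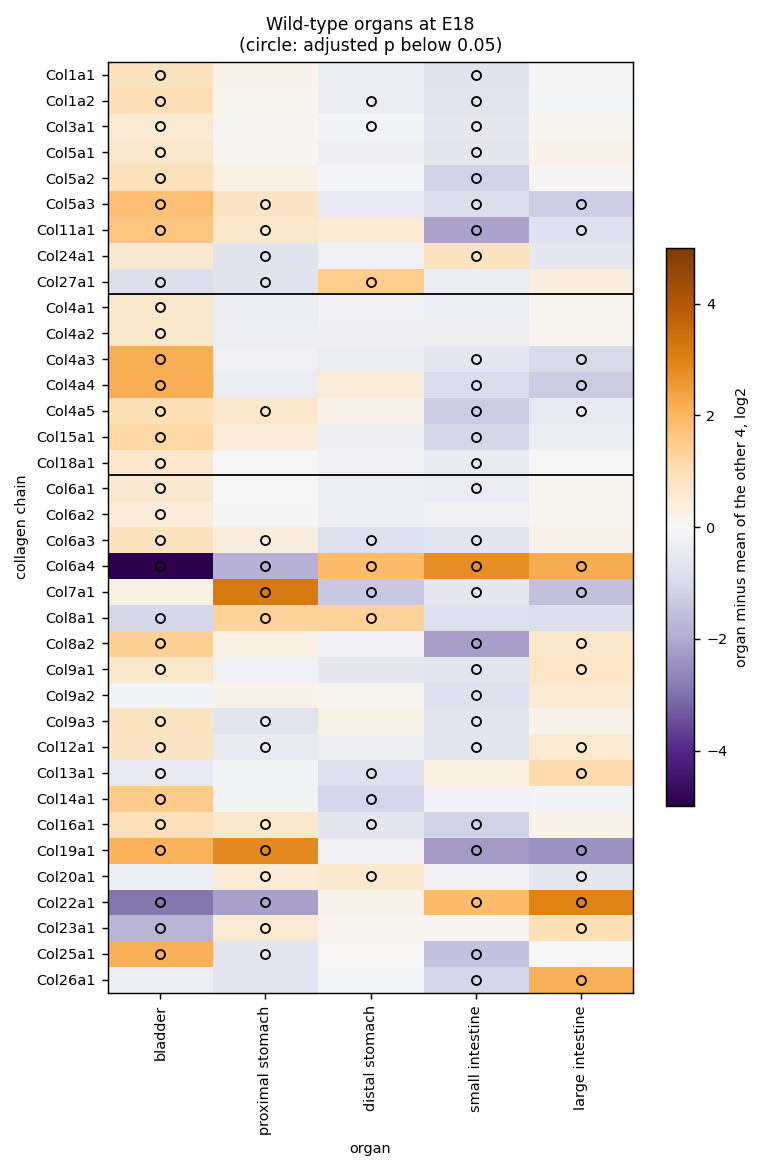
Difference between each wild-type organ at E18 and the mean of the other 4 (colour, log2) for the 36 tested chains (rows, fibrillar, basement membrane and other chains divided by lines); a circle marks an adjusted p below 0.05. The bladder column is mostly above 0 and the small intestine column mostly below 0, with Col6a4 at -5.01 in bladder and 2.74 in small intestine.

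In the bladder, many more chains were called between stages than between genotypes, as was the case among all genes. From E15 to E18, 6 chains rose and 9 fell in the wild type, where 45.0% of all genes were called, and 3 rose and 12 fell in the knockout, where 46.7% were. Called in the same direction in both genotypes were 12 chains, which is 80.0% of the calls of each, and none was called in opposite directions. From E18 to E19, 8 chains rose and 9 fell in the wild type (63.1% of all genes called) and 10 rose and 7 fell in the knockout (60.5%).

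Between E15 and E18 cartilage-type fibril-associated chains fell. Col9a1, Col9a2 and Col9a3, the chains of type IX collagen on the surface of type II fibrils, fell by 1.13, 1.01 and 0.85 in the wild type and by 1.62, 1.28 and 1.32 in the knockout. These chains lay above the array median on only 6, 5 and 7 of 28 arrays, and each had its highest group mean in knockout bladder E15. Passing the filter may thus have rested on the E15 arrays. The wild-type bladder means of Col9a1 and Col9a3 at E18, 7.08 and 7.54, lay below the array medians of 7.76 and 7.75. Larger falls were those of Col22a1, by 2.90 and 1.55, of Col26a1, by 2.06 and 2.25, and of the transmembrane chain Col13a1, by 1.72 and 1.70. Col15a1, a proteoglycan of the basement membrane zone of muscle and vessels, rose by 1.91 in the wild type, from 9.17 and 9.64 to 11.59 and 11.04, and by 1.34 in the knockout, from 9.89 and 9.91 to 11.15 and 11.33. Col5a3 rose by 1.47 and 1.11, and Col19a1 by 1.37 and 1.21. In Col15a1 the E15 and E18 arrays did not overlap in either genotype.

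Over the same step 8 of 11 smooth muscle markers rose in each genotype, and 6 of 14 skeletal muscle markers rose in the wild type and 5 in the knockout. Of 10 endothelial markers 6 fell in the wild type and 2 in the knockout. Among all 13613 genes 2333 rose and 3797 fell in the wild type, and 2141 rose and 4220 fell in the knockout. The part of these lists was not tested. With the beta-actin 3' minus 5' difference as a covariate no chain was called between E15 and E18 in the knockout, and Col11a1 and Col8a2, which fell by 0.88 and 0.77 there, turned to 0.37 and 0.43. The other 13 kept their direction, among them Col15a1 at 2.52 (adjusted p = 0.0505), Col19a1 at 2.38 and Col5a3 at 1.99. The wild-type count was 9 in place of 15 without replicate 1 of E15 or replicate 1 of E18, and the knockout count was 9 without replicate 2 of E18.

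From E18 to E19 the 2 chains of type I collagen parted on their representative probe sets. Col1a1 gave 14.59 and 14.47 at E18 and 12.46 and 12.46 at E19 in the wild type, and thus fell by 2.07 (SE 0.18, adjusted p = 4.3e-09), and 14.55 and 14.50 against 12.69 and 12.59 in the knockout, and thus fell by 1.88 (adjusted p = 2.0e-08). Col1a2 gave 14.55 and 14.51 at E18 and 14.58 and 14.55 at E19 in the wild type, and 14.49 and 14.42 against 14.54 and 14.57 in the knockout, so that the stages overlapped or differed by less than 0.2. The second probe set of Col1a1 fell by 0.88 in the wild type and by 0.71 in the knockout, and the second of Col1a2 rose by 0.29 and 0.37. The size of the Col1a1 fall thus depended on the probe set, and its direction did not.

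Col3a1 rose by 0.30 in the wild type, from 14.41 and 14.46 to 14.75 and 14.72, and by 0.37 in the knockout. Larger rises were those of Col7a1, by 1.73 and 1.62, and of Col14a1, a fibril-associated chain of dense connective tissue, by 1.33 and 1.54. Col6a3 rose by 0.91 and 1.09. Col6a4 rose by 1.28 and 1.03, with every array of both stages below its array median. Col8a2, which with Col8a1 forms the hexagonal network known from the membrane behind the cornea, fell by 2.67 and 1.45, and Col15a1 fell by 1.39 and 1.21. Probe sets disagreed for Col14a1, where the third probe set fell by 0.99 in the wild type and fell by 1.53 in the knockout, and for Col25a1, where the representative fell by 0.60 in both genotypes and the other probe set rose by 0.94 in the wild type. For Col4a1 the representative gave 0.30 and 0.25, neither of them called, and the other probe set gave -0.43 and fell by 0.55 in the knockout.

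The 4 E19 arrays were darker as a whole, and centring each array on its median moved every E19 minus E18 difference by 0.23 in the wild type and 0.31 in the knockout. The counts then became 14 higher and 6 lower in the wild type and 19 higher and 6 lower in the knockout, and 57.3% and 67.1% of all called genes were higher, against 42.9% and 46.8% as deposited. Over the same step 8 of 14 skeletal muscle markers fell and 2 rose in the knockout, against 1 each way in the wild type. The knockout E18 arrays differed in the mean level of this list, 10.50 and 9.08, beside 8.98 and 8.96 at E19. In both genotypes 3 of 10 endothelial markers rose. Of all 13613 genes 4379 fell and 3856 rose in the knockout, and 4907 fell and 3684 rose in the wild type. The part of these lists was not tested.

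**Figure D3:**
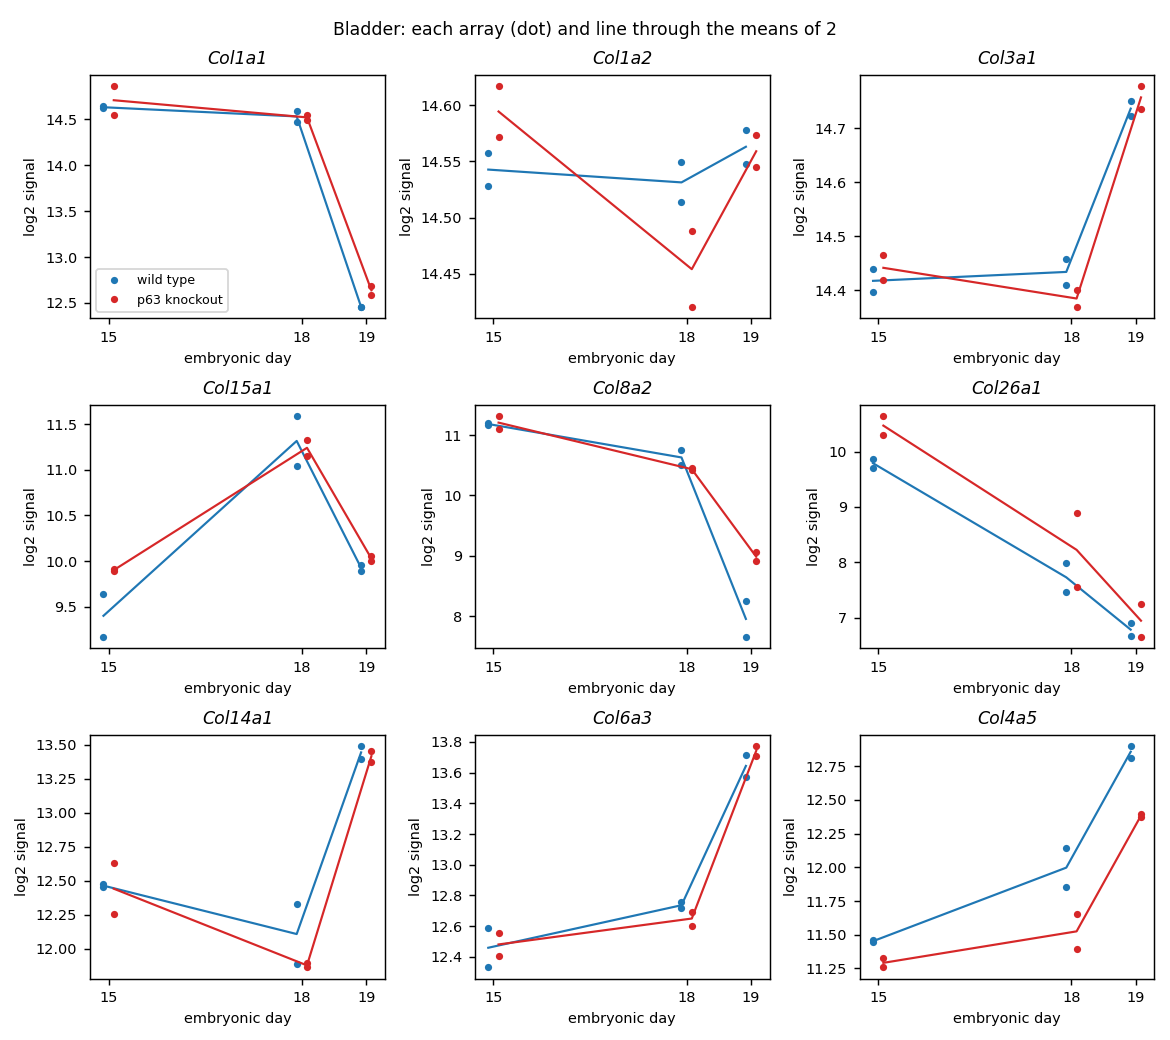
Log2 signal of 9 chains in bladder (vertical axis) against embryonic day (horizontal axis), with each array as a dot and lines through the means of 2 arrays, wild type in blue and knockout in red and a vertical scale of its own in each panel. The lines of both genotypes run together for Col1a1, which fell by 2.07 and 1.88 at E19, and for Col14a1, which rose by 1.33 and 1.54.

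Few collagen chains were called between genotypes, and none of them was fibrillar. Of 252 combinations of a tested chain and 1 of the 7 knockout contrasts, 12 were called, 7 of them higher and 5 lower in the knockout. They belong to 9 chains, and 27 chains were called in none. No fibrillar chain was called in any of 63 combinations, while 4 of 49 were called among basement membrane chains and 8 of 140 among other chains. Beside these stand the shares of all genes called, which were 7.04% in bladder E15, 3.24% in bladder E18, 20.0% in bladder E19, 32.7% in proximal stomach, 0% in distal stomach and small intestine and 0.0882% in large intestine.

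On their representative probe sets, the signals of the main fibrillar chains lay close together in both genotypes. Over the 7 contrasts the differences of Col1a1 ran from -0.26 to 0.18, and their 95% confidence intervals lay within -0.64 and 0.56. For Col1a2 they ran from -0.28 to 0.07 with intervals within -0.55 and 0.34, and for Col3a1 from -0.05 to 0.11 with intervals within -0.20 and 0.26. On the other probe sets of these chains the differences ran from -0.11 to 0.05 for Col1a1 and from -0.53 to 0.42 for Col1a2. For Col3a1 they ran from -0.14 to 0.27, the highest in proximal stomach, where the representative gave -0.05. By mean signal the representative probe sets stood at the 99.02, 99.32 and 99.60 percentile of all genes. Whether signal so near the top of the range follows RNA in proportion was not tested. The intervals cover the spread between arrays only. In proximal stomach Col1a1 gave 14.15 and 13.86 in the wild type and 13.91 and 13.57 in the knockout, and Col3a1 gave 14.10 and 14.07 against 14.03 and 14.05. The lowest adjusted p of a fibrillar chain was 0.0791, for Col5a3 in bladder E15, with 7.29 and 7.40 in the wild type and 8.21 and 8.11 in the knockout. The largest fibrillar difference was also one of Col5a3, -1.09 in large intestine, with 6.34 and 6.51 against 5.71 and 4.95, which was not called.

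**Figure D4:**
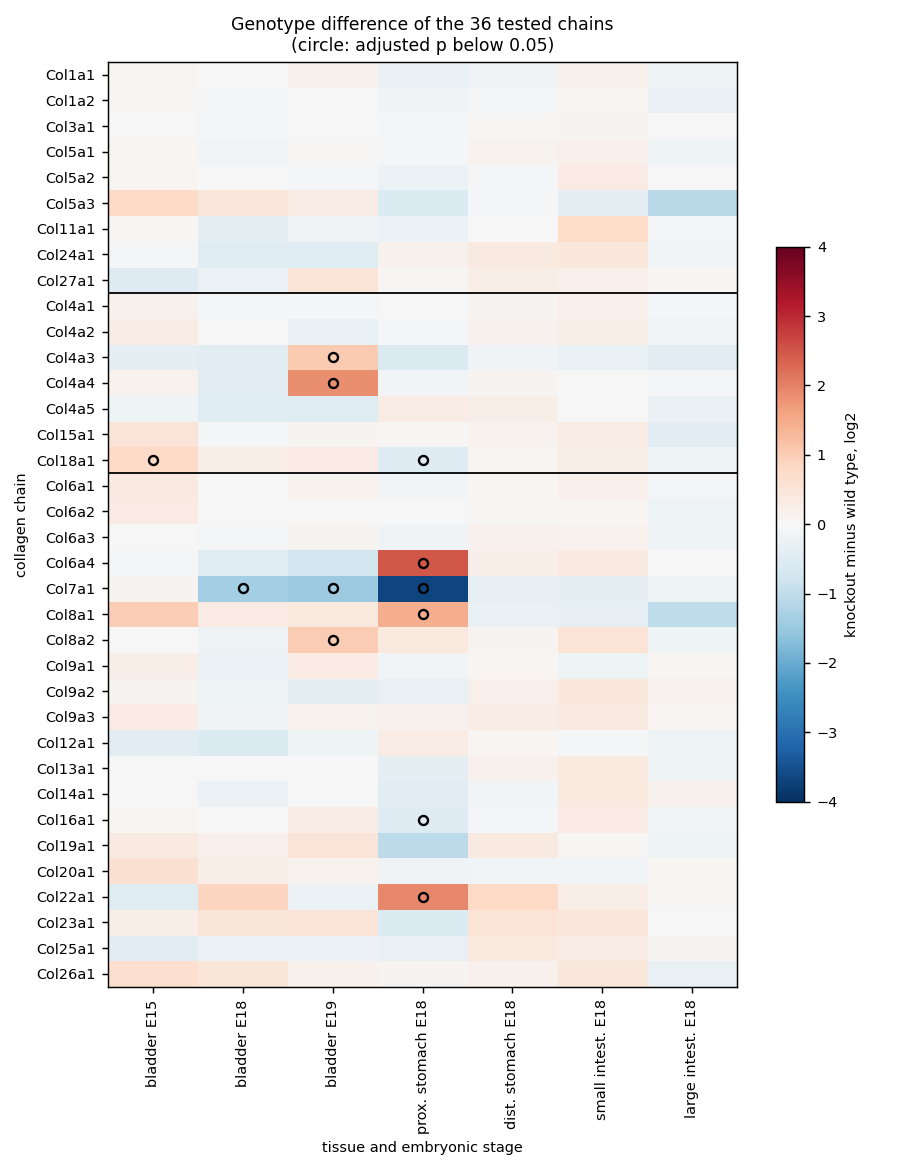
Knockout minus wild type (colour, log2) for the 36 tested chains (rows, fibrillar, basement membrane and other chains divided by lines) in the 7 tissues and stages (columns); a circle marks an adjusted p below 0.05. No circle lies among the fibrillar chains, and the strongest colours are those of Col7a1 at -3.66 and Col6a4 at 2.48 in proximal stomach.

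Among the basement membrane chains, Col4a3 and Col4a4 were higher in knockout bladder at E19. Col4a4 gave 7.33 and 7.67 in the wild type and 9.25 and 9.44 in the knockout, a difference of 1.84 (SE 0.29, adjusted p = 2.0e-04) or 3.59-fold. Col4a3 gave 6.34 and 6.53 against 7.38 and 7.62, a difference of 1.06 (SE 0.23, adjusted p = 0.0027). Both wild-type arrays of Col4a3 lay below their array medians of 7.502 and 7.535, and knockout replicate 1 lay below its median of 7.481. Wild-type replicate 1 of Col4a4, at 7.33, also lay below its array median. Neither chain was tested under the stricter filter given in the closing section. In both chains the genotypes did not overlap at E19, and the second probe set of Col4a4 differed by 2.00. The third probe set of Col4a4 differed by 0.24 and the second of Col4a3 by 0.99, and neither of these passed the filter. Their levels in wild-type bladder fell from E18 to E19, Col4a3 by 2.42 and Col4a4 by 1.56, while in the knockout Col4a3 fell by 0.90 and Col4a4 rose by 0.75.

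At the earlier stages neither chain was called between genotypes. Col4a3 gave 8.75 and 8.93 in the wild type and 8.46 and 8.47 in the knockout at E15, and 9.02 and 8.70 against 8.11 and 8.70 at E18. Col4a4 gave 8.61 and 8.57 against 8.82 and 8.63 at E15, and 9.62 and 8.497 against 8.49 and 8.71 at E18, where its genotypes overlapped. The test of the genotype difference between E19 and E18 gave 1.52 for Col4a3 (adjusted p = 0.0079) and 2.30 for Col4a4 (adjusted p = 0.0025). In that contrast 3 chains were called higher and none lower, where 5.27% of all genes were called.

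Col4a1 and Col4a2, the network of most basement membranes, were not called in any knockout contrast. The differences of Col4a1 ran from -0.09 to 0.21 with 95% intervals within -0.43 and 0.56, and those of Col4a2 from -0.31 to 0.30 with intervals within -0.74 and 0.73. In bladder E19 Col4a1 gave 14.06 and 14.04 in the wild type and 13.96 and 13.96 in the knockout, and Col4a2 gave 13.20 and 13.21 against 12.89 and 12.90. Both chains thus lay slightly lower in the knockout on both arrays, by less than the test could resolve. Col4a5, the partner of Col4a3 and Col4a4, gave 12.81 and 12.90 against 12.37 and 12.39 there (difference -0.47, adjusted p = 0.0588), opposite in sign to its partners. In proximal stomach it gave 11.68 and 11.77 against 11.86 and 12.18.

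Col18a1, a heparan sulfate proteoglycan of basement membranes whose end fragment is endostatin, was called in both directions. In bladder E15 it gave 10.88 and 10.97 in the wild type and 11.99 and 11.48 in the knockout, a difference of 0.81 (SE 0.19, adjusted p = 0.0149). In proximal stomach it gave 10.84 and 10.29 against 10.09 and 9.98, and thus fell by 0.53 (adjusted p = 0.0411). The beta-actin 3' minus 5' difference was 1.33 and 1.12 in knockout against 0.69 and 0.78 in wild-type bladder E15, and 0.48 and 0.61 against 0.97 and 0.88 in proximal stomach; the genotypes also did not overlap in it, with smaller gaps, in every other tissue and stage except distal stomach. With that difference as a covariate the values of Col18a1 became -0.02 (adjusted p = 0.999) and 0.11 (adjusted p = 0.829), and neither was called. The E15 call was also lost without knockout replicate 1 and without either wild-type replicate, and the proximal stomach call without either knockout replicate or wild-type replicate 1.

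Col7a1, the sole chain of the anchoring fibrils, fell in the knockout in the stratified tissues that hold it. In proximal stomach it gave 10.61 and 10.32 in the wild type and 6.86 and 6.75 in the knockout, and thus fell by 3.66 (SE 0.18, adjusted p = 9.2e-13); the knockout arrays lay below their array medians of 7.83 and 7.75. In bladder E18 it gave 8.21 and 8.11 against 6.74 and 6.88, and thus fell by 1.35 (adjusted p = 1.0e-04), and in bladder E19 9.92 and 9.86 against 8.47 and 8.40, and thus fell by 1.46 (adjusted p = 1.5e-05). In these 3 contrasts the genotypes did not overlap, and the knockout level of proximal stomach lay close to that of distal stomach and large intestine. In bladder E15 the genotypes overlapped, with 7.85 and 7.78 in the wild type and 7.84 and 8.02 in the knockout.

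In the tissues without a stratified lining Col7a1 was low in both genotypes. It gave 6.85 and 6.78 in wild-type and 6.51 and 6.497 in knockout distal stomach, 7.65 and 7.30 against 6.97 and 7.29 in small intestine, and 6.81 and 6.59 against 6.63 and 6.35 in large intestine. None of these 3 differences was called. In bladder the wild type gained Col7a1 with stage, from 7.85 and 7.78 at E15 to 9.92 and 9.86 at E19, while the knockout fell by 1.12 from E15 to E18 and then rose by 1.62. The genotype difference of the E15 to E18 change was -1.47 (adjusted p = 0.0054), the 1 chain called of 36 where 0.610% of all genes were called; with the beta-actin covariate the value was -1.54 and its adjusted p 0.628. The genotype difference of the E18 to E19 change was -0.11 and was not called, and the E19 level in the knockout lay above its own E18 level.

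The markers of basal stratified epithelium moved with Col7a1 in part. Of 8 tested, 5 fell and none rose in bladder E18 (median -1.80), 7 fell and none rose in bladder E19 (median -2.42), and 3 fell and 1 rose in proximal stomach (median -0.35). Their mean level was 11.88 and 11.51 in wild-type and 9.91 and 9.65 in knockout bladder E18, and 12.64 and 12.42 against 10.96 and 10.96 in proximal stomach. Krt5 fell by 4.83, 5.01 and 5.80 in bladder E18, bladder E19 and proximal stomach. In bladder E15, where Col7a1 was not called, 2 of these markers fell and 1 rose. Of all 13613 genes 228 fell and 213 rose in bladder E18, and 885 fell and 1836 rose in bladder E19. In proximal stomach 1984 of them fell and 2464 rose, and in bladder E15 339 fell and 620 rose. The part of basal epithelial cells in the Col7a1 differences was not tested.

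Col6a4 rose in knockout proximal stomach to near the level of the glandular and intestinal tissues. It gave 8.62 and 8.24 in the wild type and 11.27 and 10.56 in the knockout, a difference of 2.48 (SE 0.30, adjusted p = 1.2e-06), or 5.58-fold. In distal stomach both genotypes lay between 11.31 and 11.74, in small intestine between 11.93 and 12.57, and in large intestine between 11.19 and 12.10. The knockout arrays of proximal stomach lay above both wild-type arrays, and 1 of them lay within the range of large intestine. In bladder Col6a4 was low in both genotypes, with 5.99 and 5.79 in the wild type and 5.38 and 5.41 in the knockout at E18, and 6.86 and 7.47 against 6.46 and 6.39 at E19 (difference -0.74, adjusted p = 0.0870). Col6a1, Col6a2 and Col6a3, the chains of the common type VI heterotrimer, were not called in any knockout contrast, and all their differences lay between -0.21 and 0.36.

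Of the 8 simple epithelium markers all 8 rose in knockout proximal stomach (median 2.30), with Krt20 up by 5.92, Cldn3 by 5.68 and Krt18 by 3.76, and their mean level went from 10.56 and 10.99 to 13.50 and 13.64. In knockout bladder at E18, where Col6a4 was not called, none of the 8 was called. In bladder E15 5 of the 8 rose and Col6a4 gave 5.48 and 5.88 in the wild type and 5.80 and 5.40 in the knockout. Of all 13613 genes 2464 rose in proximal stomach, 213 in bladder E18 and 620 in bladder E15. The part of simple epithelial cells in the Col6a4 difference was not tested.

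The upstream windows of Col7a1, Col6a4 and Col4a4 are shown because the largest genotype differences in proximal stomach and bladder E19 were theirs; Col22a1 had no window. They are reference sequence from RefSeq on GRCm38.p6 and were not measured. The 250 bases before the start site are given 5′ to 3′ on the gene's strand, and capitals mark CCAAT and GGGCGG on either strand, so that ATTGG and CCGCCC are the same motifs read from the other strand.
Col7a1, chr9:108953336-108953585, plus strand: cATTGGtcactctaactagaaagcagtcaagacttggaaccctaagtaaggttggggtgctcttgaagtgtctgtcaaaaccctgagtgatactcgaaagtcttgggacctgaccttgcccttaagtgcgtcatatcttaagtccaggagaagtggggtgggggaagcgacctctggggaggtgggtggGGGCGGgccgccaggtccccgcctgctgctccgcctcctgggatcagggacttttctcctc
Col6a4, chr9:106096692-106096941, minus strand: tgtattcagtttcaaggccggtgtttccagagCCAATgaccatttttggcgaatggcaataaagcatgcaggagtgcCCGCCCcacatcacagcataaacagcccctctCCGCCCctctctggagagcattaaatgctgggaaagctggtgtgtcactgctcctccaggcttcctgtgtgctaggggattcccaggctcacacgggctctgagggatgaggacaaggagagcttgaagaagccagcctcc
Col4a4, chr1:82586850-82587099, minus strand: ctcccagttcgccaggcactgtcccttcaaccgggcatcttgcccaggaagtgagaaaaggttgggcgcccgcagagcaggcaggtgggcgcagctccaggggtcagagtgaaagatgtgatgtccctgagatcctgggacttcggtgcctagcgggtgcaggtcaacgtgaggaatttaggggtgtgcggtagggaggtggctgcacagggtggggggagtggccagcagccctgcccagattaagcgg
Col7a1 held 1 of each motif and Col6a4 held 1 CCAAT and 2 GGGCGG, while the Col4a4 window held neither. Windows of 300 bases around the start, 250 before and 50 after, were found for 32 of the 41 chains, 35 windows in all. GGGCGG, the GC box, stood in 62.9% of the chain windows and 35.7% of all 32851 windows, CCAAT in 34.3% and 37.4%, TATAAA in 11.4% and 13.6%, and the p53-family half-site in 5.71% and 8.36%, the latter in Col20a1 and Col9a2. The median GC content was 60% in the chain windows and 52.7% in all, and GGGCGG is itself rich in G and C. All motifs were searched on both strands, no matches overlap in the windows shown, and a match describes letters and not binding.

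Both chains of type VIII collagen, the short-chain network, were called higher in a knockout tissue, in different ones. Col8a1 gave 10.64 and 10.03 in proximal stomach of the wild type and 11.68 and 11.88 in that of the knockout, a difference of 1.44 (SE 0.41, adjusted p = 0.0106), and its other probe sets differed by 0.92 and 1.58. The call was lost with the beta-actin covariate, where the difference was 1.56 (adjusted p = 0.129), and without knockout replicate 2 or wild-type replicate 2. Col8a2 gave 7.65 and 8.26 in wild-type and 8.91 and 9.06 in knockout bladder E19, a difference of 1.03 (SE 0.25, adjusted p = 0.0067), which was lost without knockout replicate 2 or wild-type replicate 1. In each case the genotypes did not overlap. Col8a2 was not called in proximal stomach (difference 0.40), nor was Col8a1 in bladder E19 (difference 0.38).

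The remaining calls were fibril-associated chains in proximal stomach. Col22a1 gave 6.04 and 5.73 in the wild type and 8.07 and 7.52 in the knockout, a difference of 1.91 (SE 0.51, adjusted p = 0.0064). In wild-type distal stomach it gave 7.05 and 8.45 and in small intestine a mean of 9.11, so that the knockout proximal stomach lay beside the distal stomach. Of the further probe sets of Col22a1, the brighter did not pass the filter and differed by -0.06. The dimmer gave 1.04 and was not called (limma adjusted p over probe sets = 0.154). The call of the representative was lost without knockout replicate 1 and with the beta-actin covariate, where the difference was 2.21 (adjusted p = 0.0753). Col16a1, a chain at the surface of fibrils, gave 11.42 and 10.90 against 10.77 and 10.50, and thus fell by 0.52 (adjusted p = 0.0477), which was lost under 10 of 16 alternatives, among them the beta-actin covariate (difference -0.0067), the removal of either knockout replicate and that of wild-type replicate 1. Col19a1 gave 10.41 and 9.29 against 8.93 and 8.64 and was not called (difference -1.06, adjusted p = 0.0821).

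Arrays that did not overlap were common among all genes. In proximal stomach the 2 genotypes did not overlap for 17 of the 36 chains and 63.8% of all genes, and in bladder E19 for 23 chains and 64.6% of all genes. Altogether 3 chains rose and 3 fell in knockout proximal stomach, 3 rose and 1 fell in bladder E19, 1 rose in bladder E15 and 1 fell in bladder E18. The proximal stomach count dropped to 3 when either knockout replicate was left out, and leaving out wild-type replicate 2 gave 8. With only its own 4 arrays fitted, bladder E19 had 8 called chains in place of 4. In proximal stomach, where 32.7% of all genes were called, 4 of 14 skeletal muscle markers fell (median -0.98), Myog by 3.83. Myog lay above the array median on only 3 arrays, among them both wild-type proximal stomach arrays, at 9.08 and 7.88. Its passing of the filter thus rested on these wild-type arrays. The knockout arrays gave 5.09 and 4.22, below their array medians of 7.83 and 7.75. Of 12 fibroblast markers 1 rose and 2 fell in knockout proximal stomach. The part of these lists in the differences of the fibril-associated chains was not tested.

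**Figure D5:**
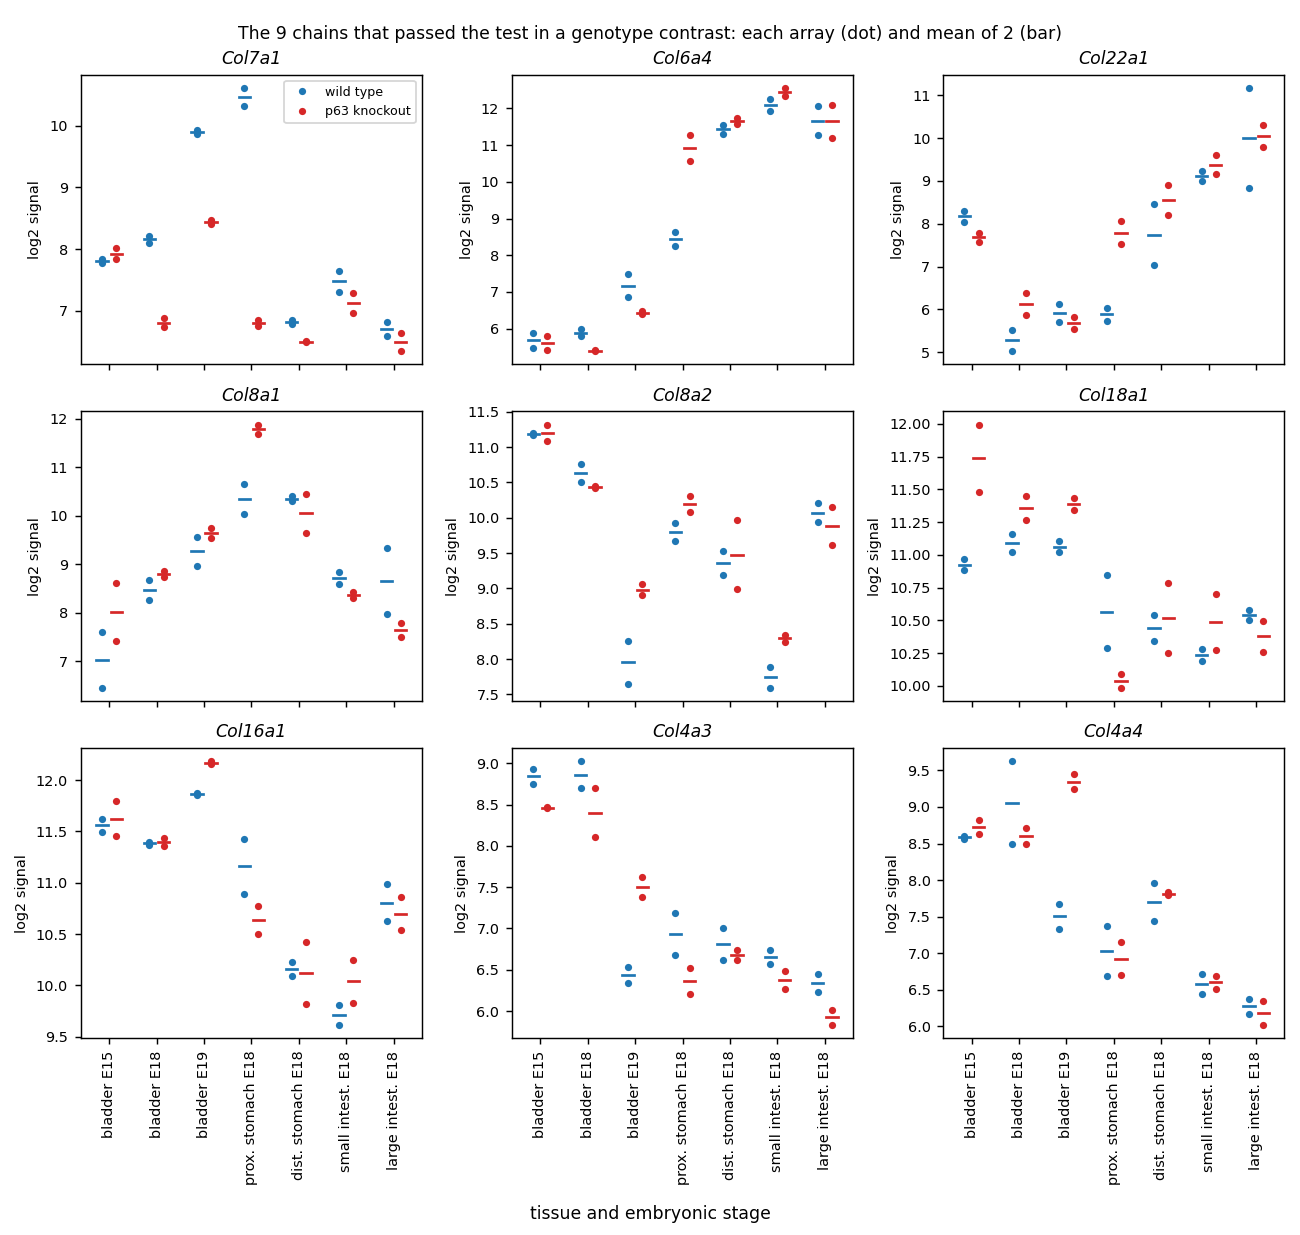
Log2 signal (vertical axis) of the 9 chains called in a knockout contrast, by tissue and stage (horizontal axis), with each array as a dot and the mean of 2 as a bar, wild type in blue and knockout in red. Col7a1 falls from 10.61 and 10.32 to 6.86 and 6.75 in proximal stomach, while Col6a4 goes from 8.62 and 8.24 to 11.27 and 10.56.

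In distal stomach, small intestine and large intestine no chain was called. By limma at an unadjusted p below 0.05 there were 0, 2 and 3 of 36 chains in these tissues, beside 528, 626 and 665 of 13613 genes, and no alternative gave a call in distal stomach or small intestine. Without knockout replicate 1 of large intestine 1 chain was called there. The differences were above 0 for 28 of 36 chains and 8024 of 13613 genes in small intestine (medians 0.22 and 0.04), and for 26 chains and 7376 genes in distal stomach (medians 0.11 and 0.02). They were below 0 for 27 chains and 7663 genes in large intestine (medians -0.12 and -0.02), and in bladder above 0 for 26 chains and 8117 genes at E15 and below 0 for 26 chains and 6277 genes at E18. In small intestine Col1a1 gave 13.23 and 13.38 in the wild type and 13.28 and 13.69 in the knockout, and Col3a1 gave 13.56 and 13.65 against 13.66 and 13.77. In large intestine Col1a2 gave 13.67 and 13.69 against 13.50 and 13.29.

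The knockout effect was also compared between proximal stomach and bladder, both at E18. It differed for 5 chains, 3 higher and 2 lower in proximal stomach, where 22.8% of all genes were called. Col6a4 differed by 2.98 (SE 0.42, adjusted p = 2.2e-05) and Col7a1 by -2.31 (SE 0.25, adjusted p = 7.0e-07), the latter a fall in both tissues of different size. Col4a5, Col12a1 and Col18a1 differed by 0.76, 0.82 and -0.80, with effects of opposite sign in the 2 tissues. The second probe set of Col12a1 gave -0.37 and was not called. Without wild-type proximal stomach replicate 2 the count was 5, and without any 1 of the other 7 arrays it was 2 or 3.

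Other genes of collagen biology were taken as lists of enzymes, partners and receptors. Of 20 enzymes that fold and modify chains 5 rose and none fell in knockout bladder at E19, where 20.0% of all genes were called (median 0.25, beside 0.09 for all genes). Among the 5 were the prolyl 4-hydroxylase subunits P4ha2 (1.21) and P4ha1 (1.06), which make the helix stable, the prolyl isomerase Fkbp14 (1.0002) and the glycosyltransferase Colgalt2 (0.80). None of the 20 was called in bladder E15 or E18, and in proximal stomach P3h2, a prolyl 3-hydroxylase of basement membrane collagen, fell by 0.95 and Ppib rose by 0.25.

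Of the 7 tested genes for propeptide processing and cross-linking, Adamts3, a procollagen N-proteinase, fell by 0.89 in bladder E18 and by 0.96 in bladder E19 and rose by 0.69 in proximal stomach, where Pcolce, an enhancer of the C-proteinase, rose by 0.72 and the C-proteinase Bmp1 fell by 0.66. Of 13 fibril-binding proteoglycans and organisers 4 fell and none rose in proximal stomach, beside 32.7% of all genes called there, namely Prelp by 1.41, Fmod by 1.29, Tnxb by 0.90 and Ogn by 0.49. In bladder E19 Fn1 fell by 0.52, and in bladder E15 Tnxb rose by 1.004 and Lum fell by 0.71. Of 8 proteases and inhibitors Timp3 and Mmp14 rose in proximal stomach, by 0.71 and 0.54.

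Col7a1 fell beside other basement membrane genes in bladder. Of 13 tested partners of collagen in the basement membrane, Lama3 and Lamb3, chains of the laminin that anchors stratified epithelia, differed by -2.22 and -1.97 in bladder E18 and by -2.09 and -2.41 in bladder E19, all of them calls. In proximal stomach none of the 13 was called (median -0.20), and in bladder E15 Lama5 rose by 0.75 and Lamc1 fell by 0.55. Among 6 receptors Ddr1, a collagen-binding tyrosine kinase of epithelia, fell by 0.73 in bladder E18, and Itgb1 fell by 0.41 in bladder E15. In distal stomach, small intestine and large intestine no gene of these 6 lists was called.

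The chains differed in how closely they followed each other over the 14 group means, which share tissues and genotypes, so that the correlations are descriptions. Over all 630 pairs of tested chains the median Pearson correlation was 0.31 (quartiles -0.15 and 0.69). Among genes next to each other in the genome, Col3a1 and Col5a2 on chromosome 1 correlated at 0.974, Col6a1 and Col6a2 on chromosome 10 at 0.936, Col4a1 and Col4a2 on chromosome 8 at 0.850, and Col4a3 and Col4a4 on chromosome 1 at 0.847. Col9a1 and Col19a1, also neighbours on chromosome 1, correlated at 0.230. Most alike of all tested pairs were Col5a1 and Col5a2, chains of type V collagen, at 0.9752, whereas Col1a1 and Col1a2 stood at 0.251 and Col1a2 and Col6a4 at -0.969. All these values are those of the representative probe sets. For Col1a1 the fall at E19 was smaller on the second probe set, and the E19 arrays stood apart as a whole. The part of either in the correlation of Col1a1 and Col1a2 was not tested.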

How the data were processed

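The authors' deposited values are 1 log2 signal per probe set and array, for 45101 probe sets on 28 arrays. Trizol served for extraction and a 3' IVT express kit for biotin labelling, per the labels' protocols, so that signal comes from the 3' ends of transcripts. The submitters' processing notes name Affymetrix Expression Console and Partek; how background was corrected, probes summarized and arrays normalized is not given in the sources used here. Depth does not apply to arrays: their number, 2 per group, limits the precision.

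Probe sets were named through the platform annotation. Of 45037 that are not controls 34945 had 1 symbol, 932 several and 9160 none, and the last 2 kinds were left out. Each gene kept its probe set of highest mean. All 28 arrays were fitted with limma 3.58.1 (lmFit, eBayes with a variance trend, R 4.3.3) as 14 group means with 14 residual degrees of freedom, and 19 contrasts were adjusted over 13613 genes. The test was checked on simulated data. Figures were drawn with matplotlib 3.10.9. The members, gene lists and tests were chosen with earlier results of these data known. Chains called in a knockout contrast and chains of types I, III, IV and VII are given array by array, with up to 4 called genes per other list. Alternatives are given in the closing section; those without the bladder E19 arrays, with each probe set alone and with crossed numbers were added after seeing the data.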

Additional observations from a re-analysis of the deposited data

Results flagged for a closer look

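Several chains responded to p63 loss differently in different tissues or stages by a test of the difference itself. Between proximal stomach and bladder at E18 the knockout effect differed by 2.98 for Col6a4, by -2.31 for Col7a1, by 0.82 for Col12a1, by -0.80 for Col18a1 and by 0.76 for Col4a5, with limma adjusted p of 2.2e-05, 7.0e-07, 0.0313, 0.0401 and 0.0287. The differences of Col6a4 and Col7a1 remained called under every alternative run, whereas those of Col12a1, Col18a1 and Col4a5 were lost under 8, 10 and 4 of 20.

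Between bladder E15 and E18 the genotype difference of Col7a1 changed by -1.47 (limma adjusted p = 0.0054). Between E18 and E19 that of Col4a3 changed by 1.52, that of Col4a4 by 2.30 and that of Col8a2 by 1.22, with limma adjusted p of 0.0079, 0.0025 and 0.0496, and the last was lost under 11 of 19 alternatives. These contrasts share the bladder E18 arrays. In the groups of 2 arrays no single array could be tested against the others.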

How the results depend on the processing

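The alternatives were no filter, a filter at the array's 75th percentile, the mean of a gene's probe sets, each probe set alone, median centring, quantile normalization, no variance trend, array weights, only the arrays compared, the beta-actin 3' minus 5' difference as a covariate, a replicate block, and leaving out each array or the 4 bladder E19 arrays. Of the counts of called chains 309 stayed within 1.5 times the reported count and 34 did not, and of the values of single chains 3251 kept direction and call, 285 lost the call and 5 turned sign. Centring and quantile normalization turned the sign of no called chain. The beta-actin covariate turned Col18a1 to -0.016 in bladder E15 and 0.11 in proximal stomach, and in knockout bladder from E15 to E18 it turned Col11a1 to 0.37 and Col8a2 to 0.43; the mean of probe sets turned Col25a1 to 0.17 from E18 to E19 in the wild type. With that covariate the called chains numbered 0 in bladder E15, 2 in proximal stomach, 0 from E15 to E18 in the knockout, 11 in the wild-type proximal stomach against other organs, 3 between the knockout effects of proximal stomach and bladder, and 0 between genotypes from E15 to E18. The 75th percentile filter, which left 25 chains, gave 2 in bladder E19, 7 and 8 from E15 to E18 in wild type and knockout, 8 in large intestine against other organs and 1 between genotypes from E18 to E19. Fitting only the arrays compared gave 2 in bladder E15, 8 in bladder E19 and 26 from E18 to E19 in the knockout. The cause of these shifts was not tested, apart from the filter, under which fewer chains were tested.

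Leaving out 1 array at a time gave 0 to 1 called chains in bladder E15, 3 to 8 in proximal stomach, 0 to 1 in large intestine, 9 to 14 and 9 to 13 from E15 to E18 in wild type and knockout, 2 to 5 between the knockout effects of proximal stomach and bladder, and 9 to 18, 5 to 15 and 10 to 17 for wild-type proximal stomach, distal stomach and large intestine against the other organs. The labels do not say whether same-numbered arrays are paired. Deviations from the group means correlated between same-numbered arrays at -0.13 to 0.28 over the 7 tissues and stages. The values were 0.25 in proximal stomach, 0.20 in distal stomach and 0.28 in large intestine. With 1 such value per tissue and stage a pairing can be neither shown nor excluded. With a replicate block bladder E15 had 2 called chains, bladder E19 5 and proximal stomach 6, and a crossed block in small intestine gave 0. Centring moved the share of all called genes that were higher from 48.3% to 33.4% in bladder E18, from 54.6% to 41.8% in wild-type large intestine against other organs, from 37.3% to 26.9% between genotypes from E15 to E18, and from 75.5% to 86.1% from E18 to E19. The 5 chains that did not pass the filter were not tested.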
